A study of Rattus norvegicus with 35 samples.

Results

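The genes described here code for the matrix of cartilage and for factors of the chondrocyte, the cell that makes it: Acan, Hapln1, Comp, Matn1, Matn3, Chad, Fmod, Cspg4, Sox9 and Ihh. A probe was taken as a member when the gene name given by the array design was one of these 10 symbols, with Acan listed on the array under its older name Agc1. This gave 17 of the 41012 probes of the array, with 4 probes for Sox9, 4 for Ihh, 2 for Matn3 and 1 for each of the other 7 genes. Where a gene had several probes, the one with the highest mean level over the groups stood for it, and the others are given beside it.

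RNA of the olfactory epithelium of 27 Brown Norway rats was hybridized on 35 Agilent whole rat genome arrays of 1 color (Cy3), to follow its mRNA profile from birth to old age. The 19 newborn rats, aged 3 to 5 days and of unknown sex, came from 4 litters, with 4 pups in L1 and 5 in each of L2, L3 and L4, and each pup gave 1 array from 1 side of the nose. The 4 adult rats were males of 9 weeks and the 4 old rats were males of 22 months, and each gave 2 arrays, one per nostril, which were averaged. All 8 listed markers of olfactory sensory neurons with a probe were expressed in every group, as the tissue label has it.

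Cartilage is a tissue of few cells in much matrix. Its fibrils of type II collagen, with types IX and XI, hold aggrecan, a very large proteoglycan that link protein fixes to hyaluronan, and smaller proteins such as the matrilins and cartilage oligomeric matrix protein tie the parts together. The supports of the nasal cavity, turbinates and septum included, are laid down as cartilage, and much of the turbinate skeleton is later replaced by bone. RNA of such tissue can enter a dissected epithelium, and in these bulk samples fewer cartilage cells and less RNA per cell cannot be told apart.

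The probes below are shown because they are the measured stretch of the genes whose levels differed most between ages, written 5′ to 3′ as the array design gives them. Positions are given as the scanner files list them (build rn3), and no annotation of exons in that build was used here. The Acan probe spans chr1:134924370-134924938 on the plus strand, 569 bases of the genome for a probe of 60. The Hapln1 probe lies at chr2:19557192-19557251 on the plus strand, and for the Comp probe the files hold no position.
Acan (A_43_P12154): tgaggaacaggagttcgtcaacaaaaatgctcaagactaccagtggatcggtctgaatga
Hapln1 (A_44_P120736): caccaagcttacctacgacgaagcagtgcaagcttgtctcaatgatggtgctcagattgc
Comp (A_44_P295789): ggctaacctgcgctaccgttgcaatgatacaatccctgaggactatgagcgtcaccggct

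The next pair shows that probes of a gene can sample different stretches, since the results below differ between probes for Sox9 and Ihh. A Sox9 probe at chr10:102408192-102408251 on the plus strand begins with ATG, the triplet of a start codon, in capitals. An Ihh probe lies on the minus strand of chr9:74437325-74439781, a span of 2457 bases for its 60.
Sox9 (A_44_P263110): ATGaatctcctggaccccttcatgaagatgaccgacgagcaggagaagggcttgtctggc
Ihh (A_42_P666128): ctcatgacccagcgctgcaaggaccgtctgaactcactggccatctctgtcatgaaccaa

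Of the 17 probes, 3 held the hexamer AATAAA, the commonest polyadenylation signal, on their own strand within their last 30 bases, against 1073 of all 41012 probes (2.62%). Its first copy is in capitals in these last 30 bases, and in the Cspg4 stretch another copy follows directly in lower case. The probes lie at chr8:60664860-60664919 (plus), chr13:47012306-47012365 (plus) and chr9:74434112-74434171 (minus).
Cspg4 (A_42_P696084): ttcaaggggggaaacaaAATAAAaataaat
Fmod (A_43_P15590): ggtggccaacctgaccAATAAAgttatttt
Ihh (A_43_P15154): tgttttggtctttcttttgtAATAAAaatt

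A level below is the log2 of the intensity over the median intensity of its array, so that 0 is the median probe, and it is compared only within a probe. A gene was called higher or lower where limma's moderated test, adjusted by Benjamini-Hochberg over all probes, gave a p under 0.01. Array medians lay between 42.1 and 87.7 intensity units in newborn, 81.6 and 162.2 in adult and 37.1 and 55.3 in old rats, with 24484 to 28361, 25273 to 28020 and 25275 to 27426 probes above background. Adult arrays were scanned on days 1 and 2, L1 and old arrays on day 3, and the other litters on days 4 and 5, so that age and scan day cannot be told apart except for L1 against old rats.

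Most of the cartilage genes were more strongly expressed in newborn rats than at either later age. Against adult rats, 7 of the 10 were called higher in pups (Acan, Hapln1, Comp, Fmod, Cspg4, Sox9 and Ihh) and 0 lower, where 27.0% of all probes were called higher and 19.9% lower. Against old rats the same 7 genes were higher and 0 lower, where the shares of all probes were 20.6% and 22.8%. The median log2 difference of the 10 genes was 1.25 against adult and 1.32 against old rats, beside medians of 0.10 and -0.04 over all probes, and the second value is the same with Hapln1 at the bound given below. Hapln1 lay near background in the older rats and Matn3 in every group. Without Hapln1 and Matn3, the medians of the other 8 genes were 1.25 and 1.11. Between adult and old rats, Acan and Hapln1 were called higher and Sox9 lower in adult rats, where 11.8% of all probes were higher and 20.6% lower. The member median there was 0.44, or 0.17 without Hapln1 and Matn3, and that of all probes -0.13.

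**Figure D1:**
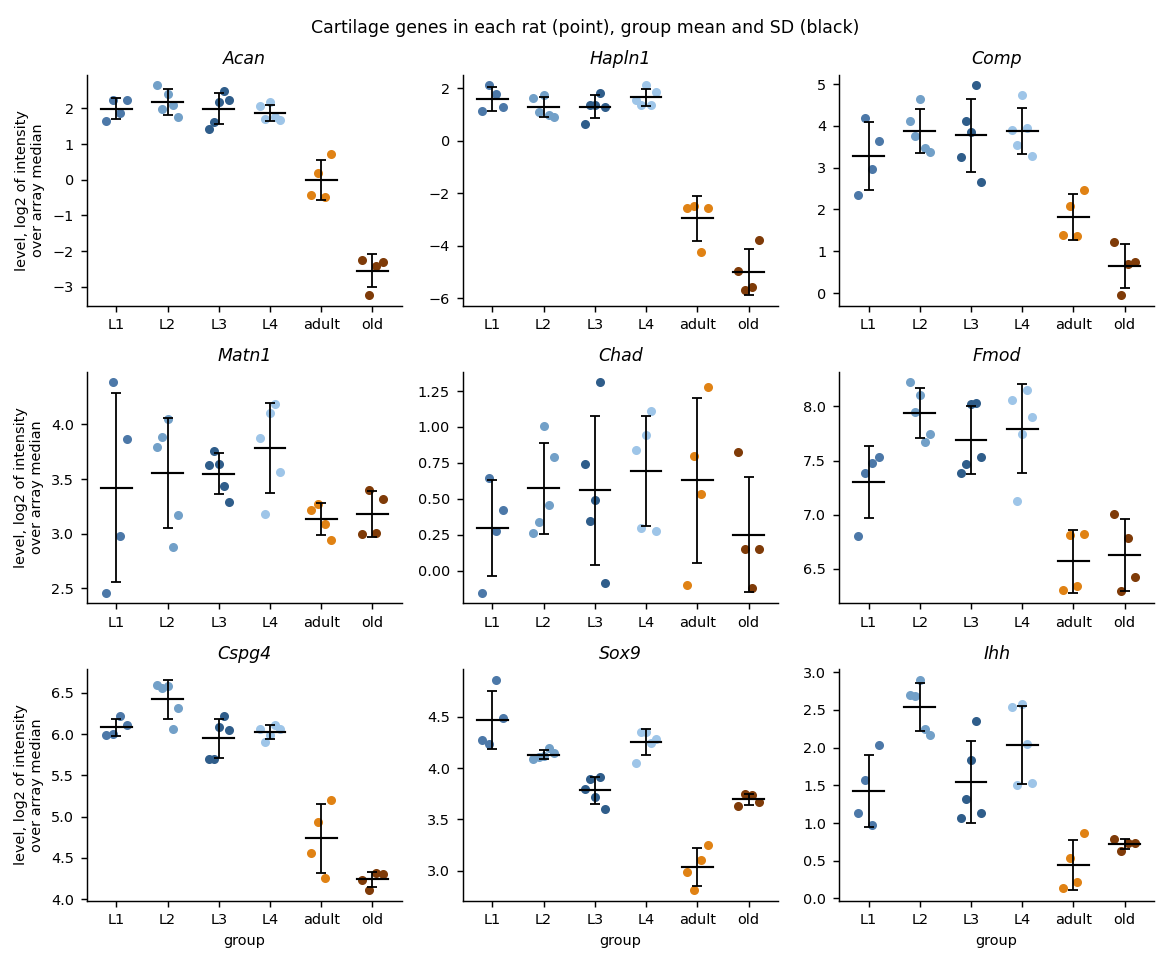
Level of 9 cartilage genes (y axis, log2 of the intensity over the array median) in each rat, by litter (L1 to L4), adult and old group (x axis); each point is a rat, and the black bar and whiskers are the group mean and SD. Acan steps down from newborn to adult to old rats, the means of Hapln1 and Comp are lower in both older groups than in pups, and Matn1 and Chad overlap at all ages.

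Aggrecan showed the clearest steps. The Acan level ranged from 1.44 to 2.66 in the 19 pups, with a median of 2.07. It was -0.42, 0.18, -0.49 and 0.71 in the 4 adult rats and -2.25, -3.23, -2.41 and -2.31 in the 4 old rats. Every pup was above every adult rat and every adult rat above every old rat. The older rats are means of 2 arrays, and a single array of adult rat 16 reached 1.49, above the lowest pup. The group means were 2.01 ± 0.33 (SD, n = 19), -0.00 ± 0.56 (SD, n = 4) and -2.55 ± 0.46 (SD, n = 4). Acan was thus 4.04-fold higher in newborn than in adult rats (log2 difference 2.02, SE 0.21, adjusted p = 1.79e-08 with limma), and 23.6-fold higher than in old rats (4.56, SE 0.21, adjusted p = 1.99e-14 with limma). It was 5.85-fold higher in adult than in old rats (2.55, SE 0.27, adjusted p = 7.6e-08 with limma). The probe was above background on all 19 newborn and 8 adult arrays but on 3 of 8 old arrays, and normexp background correction (offset of 50) followed by quantile normalization, called normexp below, gave 1.30, 2.04 and 0.74 for the 3 differences.

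Hapln1 encodes link protein, which locks aggrecan to hyaluronan. Its level lay between 0.65 and 2.13 in the pups, with a median of 1.38. In the adult rats it was -2.55, -2.48, -4.24 and -2.56, and in the old rats -4.96, -5.68, -5.57 and -3.76. All pups were far above all older rats, whose signals were mostly at background, as only 1 of 8 adult arrays and 0 of 8 old arrays were well above it. The fitted log2 difference between newborn and adult rats was 4.41 (SE 0.31, adjusted p = 1.19e-11 with limma) and 1.52 after normexp, and no fold is given, since 7 of 8 adult arrays were not well above background. Against old rats, with measured means of 1.46 and -5.00, the lowest signal well above background on the old arrays set a bound of at least 12.3-fold (adjusted p = 2.44e-14 with limma). Adult and old rats also differed in Hapln1 (adjusted p = 1.68e-04 with limma), with no fold, since both lay near background. That call was lost with the 75th percentile, normexp, the methods' t-test or only the groups compared (adjusted p from 0.0222 to 0.385).

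Comp, cartilage oligomeric matrix protein, is a pentamer of the thrombospondin family that binds collagen fibrils in cartilage and tendon. The level in pups ranged from 2.34 to 4.98 with a median of 3.75, the widest of the 9 member genes expressed in at least 1 group. The adult rats had 1.39, 2.07, 1.36 and 2.48, and the old rats 1.23, -0.05, 0.70 and 0.74. The lowest pup lay below the highest adult rat, and all pups were above all old rats. Comp was 3.68-fold higher in newborn than in adult rats (log2 difference 1.88, SE 0.35, adjusted p = 5.88e-05 with limma) and 8.29-fold higher than in old rats (3.05, SE 0.35, adjusted p = 8.2e-08 with limma). All 4 adult rats exceeded all 4 old rats, but the difference of 1.17 was not called (adjusted p = 0.0378 with limma).

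The matrilins are adaptor proteins that link collagen fibrils with proteoglycans. Matn1 ranged from 2.46 to 4.38 in pups with a median of 3.63, against 3.22, 3.27, 3.09 and 2.94 in adult and 2.99, 3.40, 3.01 and 3.32 in old rats. The pups lay on both sides of the older rats. None of the 3 differences was called, with 0.45 (SE 0.24) between newborn and adult, 0.40 (SE 0.24) between newborn and old, and -0.05 (SE 0.31) between adult and old rats (adjusted p 0.121, 0.172 and 0.939 with limma). Neither Matn3 probe was above background on any newborn array. The representative probe was so on 1 of 8 adult arrays and the other on 1 of 8 old arrays, and no fold is given.

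Chad, chondroadherin, and Fmod, fibromodulin, are leucine-rich matrix proteins, of which the second binds collagen fibrils in cartilage and in tendon. Chad spanned -0.15 to 1.31 in pups with a median of 0.46. It was -0.10, 0.80, 0.53 and 1.28 in adult and 0.82, 0.15, -0.12 and 0.15 in old rats. The 3 ages overlapped, and the differences of -0.10 (SE 0.23), 0.28 (SE 0.23) and 0.38 (SE 0.29) were not called. Fmod ranged from 6.81 to 8.22 in pups with a median of 7.74, against 6.30, 6.82, 6.34 and 6.82 in adult and 7.01, 6.29, 6.78 and 6.42 in old rats. The lowest pup fell within the range of the older rats, and the other 18 lay above every adult and old rat. Fmod was 2.16-fold higher in newborn than in adult rats (log2 difference 1.11, SE 0.17, adjusted p = 5.71e-06 with limma) and 2.08-fold higher than in old rats (1.05, SE 0.17, adjusted p = 1.41e-05 with limma). After normexp the difference from adult rats was 0.49 and no longer called (adjusted p = 0.0153 with limma). Adult and old rats differed by -0.06 (SE 0.22), which was not called and changed sign with the scaling.

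Cspg4 is a membrane proteoglycan found on immature chondrocytes but also on pericytes and glial progenitors. Its level was 5.70 to 6.59 in pups with a median of 6.06, and 4.55, 4.94, 4.25 and 5.20 in adult and 4.23, 4.11, 4.32 and 4.30 in old rats. All pups were above all older rats, by 2.61-fold against the adult mean (log2 difference 1.38, SE 0.12, adjusted p = 6.09e-10 with limma) and 3.68-fold against the old mean (1.88, SE 0.12, adjusted p = 4.96e-12 with limma). Before averaging, a single array of adult rat 16 reached 5.87, above the lowest pup. Normexp reduced the first difference to 0.79, and the methods' t-test no longer called it (adjusted p = 0.0121). Adult rats were 0.50 above old rats (SE 0.15), which just missed the threshold (adjusted p = 0.0111 with limma). It passed without adult rat 13 or without adult rat 15.

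**Figure D2:**
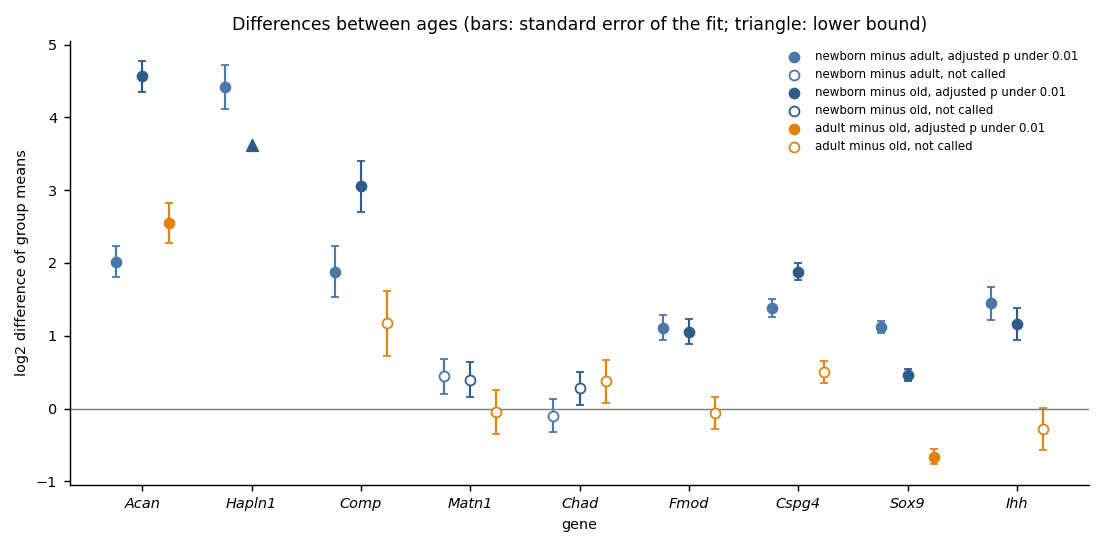
Log2 difference of group means (y axis) of 9 cartilage genes (x axis) for newborn minus adult, newborn minus old and adult minus old rats; circles with bars are limma estimates with their SE, filled where adjusted p was under 0.01, and the triangle is the lower bound for Hapln1 against old rats, with no point for Hapln1 between adult and old rats. The Hapln1 point for newborn minus adult rests on adult arrays of which 1 of 8 was well above background. The differences from old rats are largest for Acan, Hapln1 and Comp, and Sox9 is the gene called lower in adult than in old rats.

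Sox9, the transcription factor that specifies chondrocytes and switches on Col2a1 and Acan, is also expressed in Bowman's glands of this tissue. Sox9 was lowest in adult rats, the age at which Acan lay between pups and old rats. The representative probe, at chr10:102409902-102409961, gave 3.60 to 4.86 in pups with a median of 4.14. Adult rats had 2.98, 2.81, 3.11 and 3.25, and old rats 3.63, 3.74, 3.74 and 3.67. The adult rats were the lowest, below all pups and all old rats, and the old rats lay within the range of the pups. Sox9 was 2.18-fold higher in newborn than in adult rats (log2 difference 1.12, SE 0.08, adjusted p = 4.32e-11 with limma) and 1.38-fold higher than in old rats (0.46, SE 0.08, adjusted p = 5.27e-05 with limma). The adult level fell short of the old level by 1.58-fold (-0.66, SE 0.11, adjusted p = 2.33e-05 with limma), a call that the methods' t-test lost (adjusted p = 0.0164). With litter means as the newborn replicates the difference from old rats was not called (adjusted p = 0.015).

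A second Sox9 probe, A_44_P102481 at chr10:102408594-102408653, was called higher in newborn than in adult rats (0.92, adjusted p = 2.82e-06 with limma) and than in old rats (0.53, adjusted p = 2.15e-03 with limma), with -0.40 between adult and old rats not called. A_44_P263110, the probe with the start triplet, was called against adult rats (0.77, adjusted p = 3.06e-04 with limma) and not against old rats (0.18). In all 3 probes the adult mean was the lowest. The last Sox9 probe was above background on no array.

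Ihh is a secreted signal of chondrocytes that are about to enlarge, and it sets the pace of growth at the ends of cartilage. Levels in pups ran from 0.97 to 2.90 with a median of 2.04, against 0.14, 0.53, 0.22 and 0.87 in adult and 0.79, 0.64, 0.73 and 0.74 in old rats. All pups exceeded all older rats, the lowest pup by a small margin. Before averaging, a single array of adult rat 16 reached 1.42, above the lowest pup. Ihh was 2.72-fold higher in newborn than in adult rats (log2 difference 1.45, SE 0.22, adjusted p = 5.9e-06 with limma) and 2.24-fold higher than in old rats (1.16, SE 0.22, adjusted p = 1.1e-04 with limma). The 2 differences were 0.75 and 0.72 after normexp, both still called. Adult and old rats differed by -0.28 (SE 0.29), which was not called.

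Of the 3 other Ihh probes, 2 were likewise called higher in newborn than in adult rats, and none was called against old rats. A_44_P638654, at chr9:74434314-74434373 on the minus strand, was above background on every array and gave 1.37 between newborn and adult rats (adjusted p = 7.53e-07 with limma), 0.28 between newborn and old rats (adjusted p = 0.208 with limma) and -1.08 for adult minus old rats (adjusted p = 6.13e-04 with limma). A_42_P666128 was called in the same directions in both comparisons with adult rats, with 8 of 19 newborn, 0 of 8 adult and 3 of 8 old arrays well above background, so that no size is given. A_44_P306554 was above background on 1 newborn array. Of the 7 further probes of Sox9, Ihh and Matn3, 4 were called higher in newborn than in adult rats, 1 higher in newborn than in old rats and 2 lower in adult than in old rats.

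**Figure D3:**
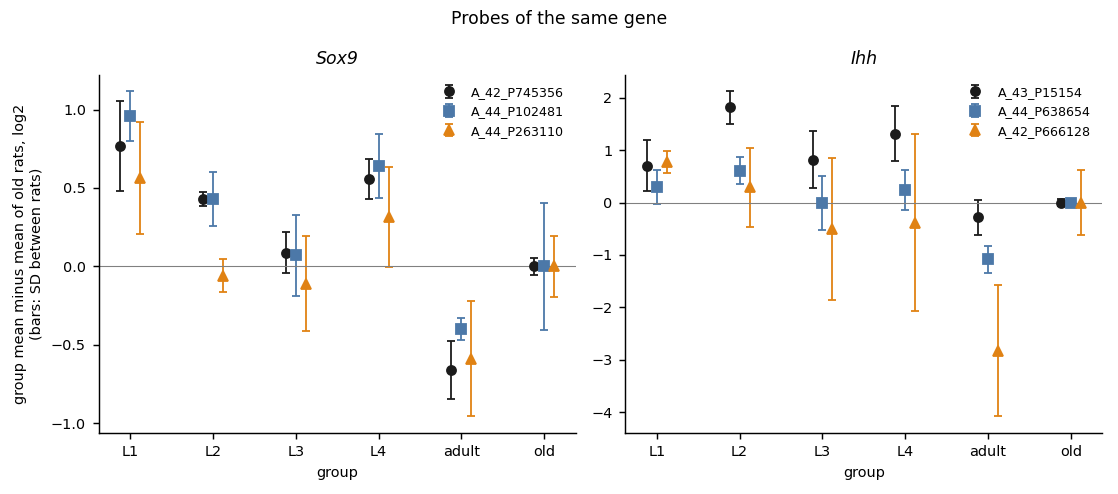
Mean of each group minus the mean of the old rats (y axis, log2; bars are the SD between rats) for 3 probes each of Sox9 (left) and Ihh (right), by group (x axis); the SD of the old rats stands at 0. The 3 Sox9 probes run in parallel. For Ihh, the probe A_43_P15154 has every litter mean above the old rats. A_44_P638654 shows smaller differences of the litters from the old rats, with L3 level with them. Its adult mean lies further below the old rats (-1.08) than that of A_43_P15154 (-0.28).

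L1 pups and old rats were scanned on the same day, so that these ages did not differ in scan day. Of the 10 genes, 5 were called higher in L1 and 0 lower, where 13.6% of all probes were higher and 19.0% lower. Acan differed by 4.55 (adjusted p = 4.77e-12 with limma), Comp by 2.63 (adjusted p = 3.68e-05 with limma), Cspg4 by 1.84 (adjusted p = 1.15e-09 with limma) and Sox9 by 0.77 (adjusted p = 2.8e-06 with limma), and Hapln1 was at least 13.5-fold higher (adjusted p = 3.85e-12 with limma). Fmod, at 0.67 (adjusted p = 0.016), and Ihh, at 0.70 (adjusted p = 0.0522), were not called within that day with limma. Fmod was called without L1 rat 9, without old rat 17, and with either quantile normalization. The slides of L1 and of the old rats were different ones.

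Among the 4 litters, 2 of the 10 genes differed by the moderated F test, where 23.8% of all probes did. Slide and scan day largely followed the litter, and L1 shared its slide and day with no other litter. Litter means of Sox9, from L1 to L4, were 4.47, 4.13, 3.78 and 4.26 (adjusted p = 8.55e-05 with limma), and the second Sox9 probe had the same order of litters, at -0.47, -0.998, -1.36 and -0.79 (adjusted p = 1.19e-03 with limma). The Sox9 probe A_44_P263110 was not called (adjusted p = 0.0239 with limma). Ihh means were 1.43, 2.54, 1.54 and 2.04 (adjusted p = 5.85e-03 with limma), highest in L2. The Ihh difference was not called by its probe A_44_P638654 (adjusted p = 0.114 with limma), nor with slide (adjusted p = 0.0633) or scan day (adjusted p = 0.019) as a random block, and it was lost without any 1 of rats 9, 11, 21, 22, 23, 26 or 27 (adjusted p from 0.0101 to 0.0199). Acan, Hapln1, Comp, Matn1 and Chad were not called (adjusted p from 0.589 to 0.746 with limma), with litter means 0.31 (Acan) to 0.60 (Comp) apart.

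The spread between pups of a litter was unequal. The SD within litters was 0.70 for Comp, 0.52 for Matn1, 0.47 for Ihh, 0.40 for Hapln1 and Chad, 0.34 for Acan and 0.33 for Fmod, but 0.18 for Cspg4 and 0.16 for Sox9. The nostrils of a rat differed too. The median difference between nostrils in adult rats was 0.76 for Acan, 0.55 for Hapln1 and 0.40 for Comp, and 0.07 for Sox9. In old rats it was 0.63 for Comp and 0.04 for Sox9, and no value is given for Acan and Hapln1, with 3 and 0 of 8 arrays above background.

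For most genes the spread within litters went with the collagens of cartilage. For each pup the mean level of Col2a1, Col9a1, Col9a2, Col9a3, Col10a1, Col11a1 and Col11a2 was set against each gene, both centered on the litter mean, for the 9 genes other than Matn3. Of these, 8 passed an adjusted p of 0.05 over 9 relations in a permutation test within litters (100000 permutations, two-sided). Pups of L2, L3 and L4 were spread over several slides and over scan days 4 and 5, which centering on litters does not remove. The part of slide and scan day in r was not tested. Beside each of the 8 stands the share of other probes with an r as high. Comp tracked the collagens most closely, with r = 0.92 and rho = 0.91 (permutation p = 1e-05, the smallest possible, adjusted 9e-05; for rho adjusted 1.8e-04), and r was 0.91 without the 2 pups farthest from the median. None of 23613 other probes expressed in each of the 6 groups had an r as high. That set leaves out probes expressed in pups alone. Acan and Hapln1, expressed in 5 and 4 of the 6 groups, would not enter it themselves.

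Matn1 (r = 0.81, rho = 0.80), Hapln1 (0.80, 0.77) and Ihh (0.77, 0.81) came next, each with an adjusted permutation p of 0.0013 for r and 0.00084, 0.00263 and 0.00084 for rho. Their raw permutation p were 0.00032, 0.00046 and 0.00058, and r without the 2 pups was 0.67, 0.75 and 0.86. Of the 23613 other probes, 0.25%, 0.254% and 0.707% had an r as high. Matn1, with no difference between ages called, thus had an r close to that of Hapln1.

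Fmod (r = 0.72, rho = 0.72), Acan (0.70, 0.67) and Chad (0.66, 0.67) had adjusted permutation p of 0.00337, 0.00345 and 0.00521 for r and 0.0036, 0.00746 and 0.00746 for rho, from raw values of 0.00187, 0.0023 and 0.00405. Without the 2 pups r was 0.72, 0.69 and 0.60. Of the 23613 other probes, 1.77%, 2.34% and 4.24% had an r as high. Cspg4 was weaker (r = 0.51, rho = 0.56, permutation p = 0.0344, adjusted 0.0387 and for rho 0.0251; 0.64 without the 2 pups), 15% of probes had an r as high, and it missed the threshold after either quantile normalization. Sox9 showed no relation that could be told from 0 (r = 0.02, rho = -0.07, permutation p = 0.956, adjusted 0.956 and for rho 0.798; 0.06 without the 2 pups). The median r of the 23613 other probes with the collagens was 0.14.

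**Figure D4:**
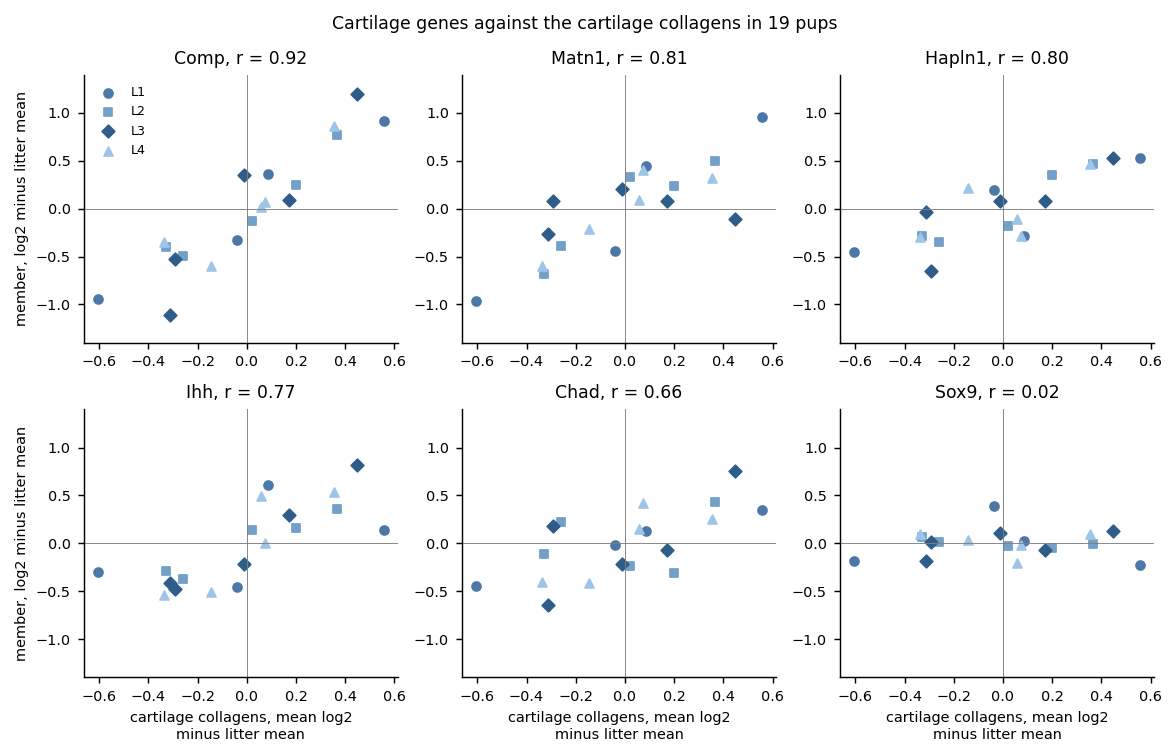
Level of 6 cartilage genes (y axis) against the mean level of 7 cartilage collagens (x axis) in 19 pups, both log2 and centered on the litter mean; each point is a pup and its shape and shade give the litter. Comp rises with the collagens in every litter (r = 0.92), and Sox9 stays near 0 (r = 0.02).

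Bone is the tissue next to cartilage in the turbinates, and its markers gave another picture. The same test against the mean of Ibsp, Bglap, Spp1, Alpl, Dmp1 and Phex, markers of bone-forming osteoblasts, passed the threshold for Cspg4 alone of the 9 genes (r = 0.63, rho = 0.69, permutation p = 0.00185, adjusted 0.0166 and for rho 0.0145; 0.61 without the 2 pups). Fmod, with r = 0.57 and rho = 0.55, had a permutation p of 0.027 (adjusted 0.122 and for rho 0.115; 0.47 without the 2 pups), and passed after normexp (adjusted p = 0.0471 by permutation). Hapln1 had r = 0.40 and rho = 0.42 (permutation p = 0.13, adjusted 0.39 and for rho 0.299; 0.34 without the 2 pups). The other 6 genes had r between -0.01 and 0.14 (adjusted permutation p = 0.977). Of the 23613 other probes, 2.07% had an r with these markers as high as that of Cspg4 and 3.51% as high as that of Fmod, with a median r of 0.04. The difference between the 2 relations of a gene was not tested.

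**Figure D5:**
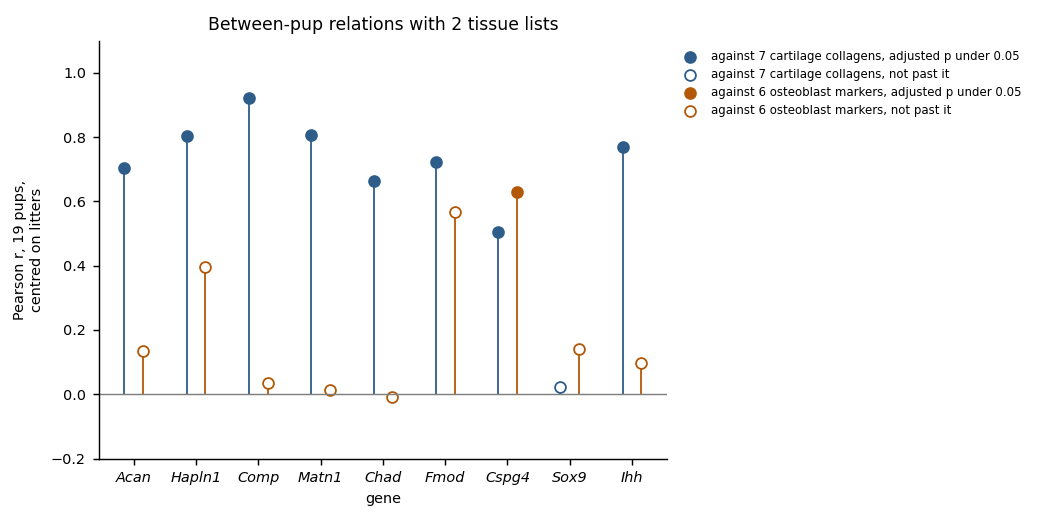
Pearson r over 19 pups, centered on litters (y axis), of 9 cartilage genes (x axis) with the mean level of 7 cartilage collagens (blue) and of 6 osteoblast markers (orange); filled points had an adjusted permutation p under 0.05. All genes but Sox9 are filled for the collagens, and Cspg4 alone is filled for the osteoblast markers.

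The collagens themselves, which are no members, were more strongly expressed at birth, for 6 of 7 genes against adult rats and for 7 of 7 against old rats, with medians of 1.37 and 2.76. Col2a1, the main fibril collagen, differed by 4.73 from adult and 5.09 from old rats, with 0.36 between adult and old rats not called. Col9a1 (2.37), Col11a1 (2.96) and Col11a2 (2.50) were instead higher in adult than in old rats, as Acan was. Their differences between newborn and adult rats were 1.37, 0.90 and 0.26, the last not called. Col9a3 (1.99 and 1.70), Col9a2 (1.29 and 0.71) and Col10a1 (1.49 and 1.37, the collagen of enlarged chondrocytes) were higher in pups than in adult and old rats and were not called between these, with -0.29, -0.57 and -0.12. All these calls had an adjusted p under 0.01 with limma.

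Genes that receive or pass on hedgehog signals also differed between ages in part, and their relation to the Ihh level was not tested. Of the 10 genes of hedgehog and parathyroid hormone-related signaling with a probe, 5 were higher and 1 lower in newborn than in adult rats. Against old rats, 6 were higher and 1 lower in newborn rats. In adult rats 2 were higher than in old rats, where 11.8% of all probes were. Gli1, a transcription factor whose own gene is switched on by hedgehog, was higher by 3.11 and 4.18 in newborn than in adult and old rats, and Gli2 by 1.56 and 2.35. Smo, which passes the signal through the membrane, was higher by 1.02 and 1.52. The receptor Ptch1 was not called, at 0.29 and 0.02.

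Pthlh, which holds back chondrocyte enlargement, and its receptor Pth1r were higher in newborn rats by 1.48 and 1.55 against adult and by 1.93 and 2.24 against old rats. Gli2 was also called between adult and old rats (0.79), while Gli1 (1.06), Smo (0.50), Pthlh (0.46) and Pth1r (0.69) were not. Fgfr3, a brake on cartilage growth, was lower in newborn than in adult rats by a log2 difference of -1.04 and than in old rats by -0.60. Gli3 was called higher in newborn and in adult than in old rats, from a probe well above background on 3 newborn, 3 adult and 0 old arrays, and no size is given. Dhh (-0.39 and -0.52) and Shh, the other hedgehog ligands, were not called against adult or old rats, and no size is given for Shh, well above background on 5 of 19 newborn, 1 of 8 adult and 1 of 8 old arrays.

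The other lists of cartilage genes were mixed. Among 11 further matrix proteins with a probe, newborn rats were higher than adult rats in 8 and than old rats in 6, with 0 lower. In adult rats 5 were lower than in old rats, where 20.6% of all probes were. The largest difference was that of Cnmd, chondromodulin, at 3.95 and 4.09 against adult and old rats. Of 8 small leucine-rich proteoglycans, the family of Fmod, newborn rats were higher than adult rats in 5 and than old rats in 6, with 0 lower, led by Aspn (2.81 and 4.78). Of 9 genes of hyaluronan and its binding proteins, newborn rats were higher than adult rats in 4. They were higher than old rats in 4 and lower in 1. The higher calls include Has1, well above background on 8 of 19 newborn, 0 of 8 adult and 0 of 8 old arrays. Vcan, a relative of aggrecan, was higher by 3.26 against adult rats and was called against old rats, with no size, since 1 of 8 old arrays was well above background. Hapln4, a relative of Hapln1, was lower in newborn than in old rats by a log2 difference of -1.13.

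Sox9 works with Sox5 and Sox6. Of 8 transcription factors of chondrocytes with a probe, 5 were higher and 1 lower in newborn than in adult rats, and 3 higher and 2 lower than in old rats. As for every list, these counts stand beside 27.0% and 19.9% of all probes against adult and 20.6% and 22.8% against old rats. Counts between adult and old rats stand beside 11.8% of all probes higher and 20.6% lower in adult rats. Sox6 was higher in newborn rats by 2.57 against adult rats (3 of 8 arrays well above background) and at least 4.57-fold against old rats (0 of 8 arrays). Sox5 was higher by 1.28 and 1.01. Runx3 was lower in newborn than in old rats (-0.79), and the higher calls include Foxa2, which was above background on no array.

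Cell types other than chondrocytes express some of these genes, and their markers moved as well. The levels of a list were summed over its genes as multiples of the array median, a sum led by its brightest probes. The 7 cartilage collagens summed to 303 to 846 in newborn, 183 to 353 in adult and 110 to 130 in old rats. Of 6 tendon and fibroblast markers, 4 were higher and 1 lower in newborn than in adult rats and 5 higher and 1 lower than in old rats, with sums of 3002 to 7363, 2222 to 3576 and 636 to 1244. Of 7 osteoblast markers, 0 were higher and 3 lower in newborn than in adult rats, and 7 were higher than in old rats. Sp7 among them was well above background on 4 of 19 newborn, 3 of 8 adult and 0 of 8 old arrays. The sums were 991 to 3311 in newborn, 1308 to 2439 in adult and 338 to 636 in old rats.

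Pericytes and glia share Cspg4. Of 6 pericyte markers, 4 were higher and 1 lower in newborn than in adult rats and 5 higher and 1 lower than in old rats, with sums of 67.1 to 120.3, 48.2 to 56.4 and 71.5 to 83.3. Of 8 glial markers, 4 were higher and 1 lower than in adult rats and 1 higher than in old rats, with sums of 312 to 1042, 311 to 454 and 375 to 522, and S100b was above background on no array. Bowman's glands share Sox9. Of 7 markers of glands and sustentacular cells, 2 were higher and 4 lower in newborn than in adult rats. Against old rats, 0 were higher and 6 lower in newborn rats. Aqp5, Bpifa1, Krt18 and Cyp2a3 were called lower in adult than in old rats, and Krt8, Cyp2g1 and Hes1 were not called. The sums were 7643 to 11630 in newborn, 6682 to 7975 in adult and 12456 to 14739 in old rats.

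Newborn rats were higher in skeletal muscle markers, for 6 of 6 genes against adult rats and for 4 of 6 against old rats, with sums of 39.0 to 426, 15.2 to 30.0 and 56.1 to 82.9. All 8 markers of olfactory sensory neurons were lower in newborn than in adult and old rats, and Omp, of the mature neuron, differed by -1.15 and -2.20. The part of these lists in the differences of the cartilage genes was not tested.

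For each gene expressed in at least 1 group, the gene most alike over the 27 rats was sought among 13563 genes with a symbol. These were Lrrc17 for Acan (r = 0.98), Itm2a for Hapln1 (0.99), Erg for Comp (0.95), Glis2 for Cspg4 (0.98), C1qtnf5 for Fmod (0.94), Dhodh for Sox9 (0.91), Gsc for Ihh (0.89) and Prss23 for Chad (0.68). For Matn1 it was Or2ak5f (0.81), which was above background on 4 arrays. All rats share the age groups, so an r over them largely repeats the steps of age. Centered on the 6 groups, r was 0.67 for Lrrc17, 0.74 for Itm2a, 0.77 for Erg, 0.81 for Glis2, 0.71 for C1qtnf5, 0.33 for Dhodh, 0.68 for Gsc and 0.75 for both Prss23 and Or2ak5f.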

How the data were processed

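The authors scanned each 1-color array and deposited, for every spot, the Feature Extraction background-subtracted intensity, the mean signal and local background intensity, and quality flags (software 9.5.1.1 for adult rats, 9.5.3.1 for the others). They also deposited a series matrix of ratio values from GeneSpring, scaled per array to the median and per probe to a constant, which was used as an alternative. Set against the scanner values, 99.99% of 16952 bright probes differed from these by a single factor on all arrays (SD under 0.05 on the log2 scale).

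From the scanner files, control spots and 4189 spot values flagged as outliers on 732 probes were left out, and spots of a probe were averaged. Each intensity was divided by its array median, floored at 0.01 and logged, and the 2 arrays of a rat were averaged, the rat being the replicate. Above background means flagged as significant and well above background, and neither non-uniform nor saturated, in at least 0.5 of the spots of a probe. A probe was expressed at 3 arrays of a litter or 6 of 8 adult or old arrays. The limma fit (version 3.58.1 in R 4.3.3; lmFit, eBayes with trend) had 6 groups, newborn being the mean of the 4 litters, with no filter on dim probes and adjustment over 40991 or 41012 probes. Where no array of a group was well above background, the fold is a bound against the lowest such signal of each array. The number of arrays limits the precision. Symbols are those of the array design, updated through RefSeq for 10735 of 24824 probes with an accession, and coordinates are those of the files (rn3).

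The members and gene lists were chosen with earlier results of these data known. Named are all members, all genes of the collagen and hedgehog lists, the called gene with the largest change from old rats in each direction of each other cartilage list, and the most alike gene of each expressed member. Markers, Omp among them, and Sox5 were named as background to these. The fit and the correlations were first tested on simulated data. Alternatives were the 75th percentile, quantile normalization, normexp (offset 50) with quantile normalization, the floor before scaling, the authors' matrix, filters on dim probes, every array as a sample with or without the rat as a block, litter means, the methods' t-test, only the groups compared, slide and scan day as random blocks (correlations 0.189 and 0.173), only the rats of 1 scan day, and leaving out each rat.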

Additional observations from a re-analysis of the deposited data

Results flagged for a closer look

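Of 54 groups of 4 or 5 rats examined over the expressed cartilage genes, 2 held a rat apart from the rest by Dixon's 95% criterion, which chance alone meets in about 1 in 20 groups. Acan in old rat 18 was -3.23 (log2 over the array median), with the other old rats between -2.41 and -2.25. Hapln1 in adult rat 15 was -4.24, with the other adult rats between -2.56 and -2.48, where 1 of 8 arrays was well above background. Both differences from newborn rats were called without these rats as well.

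The newborn level differed between litters for Sox9, with litter means 0.68 apart (log2), and for Ihh, with means 1.11 apart. Of all probes, 23.8% differed by the same test. L1 shared its slide and scan day with no other litter, so that for L1 these cannot be told from the litter. The Sox9 difference held with slide or scan day as a random block, and that of Ihh did not.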

How the results depend on the processing

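No paired analysis was possible because rat numbers are not shared between groups. Of the counts of called members, the 7 higher in newborn than in adult rats and the 7 against old rats stayed at 7 whichever rat was left out. Against adult rats they numbered 6 after normexp, 8 with litter means as the newborn replicates and 5 of 7 with probes expressed in each of the 6 groups. Against old rats they numbered 6 with litter means, 8 with the methods' t-test and 5 of 7 with those probes. L1 against old rats ranged from 5 to 6, adult against old from 2 to 3 higher and 1 lower throughout, and the litters from 1 to 2. Members higher in adult than in old rats numbered 1 with probes expressed in each of the 6 groups, with the methods' t-test or with only the groups compared, and 4 with every array as a sample, against 2. Members lower numbered 0 with the methods' t-test, against 1. Litter differences numbered 1, against 2, with the 75th percentile and with slide or scan day as a random block. Relations with the osteoblast markers numbered 2, against 1, after normexp.

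Some differences that were not called changed sign. For Chad, newborn against adult was 0.068 after normexp and -0.34 to 0.12 when single rats were left out (positive without adult rat 16), and L1 against old was -0.077 to 0.24 (negative without L1 rat 10 or old rat 19). For Matn1, adult against old was 0.033 with the 75th percentile, 0.041 after quantile normalization and -0.11 to 0.025 when single rats were left out (positive without adult rat 16 or old rat 18). L1 against old was -0.077 to 0.56 for Matn1 (negative without L1 rat 10), and its r with the osteoblast markers was -0.063 after quantile normalization. For Fmod, adult against old was 0.024, 0.39 and 0.52 with the 75th percentile, quantile normalization and normexp, and -0.17 to 0.071 when single rats were left out (positive without adult rat 13, adult rat 15 or old rat 17). The cause was not tested. Of the values of single genes under the alternatives, 1201 kept direction and side of the threshold, 16 reversed, 20 lost a call and 17 gained one.

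The split of all probes moved with the scaling. Called higher and lower in newborn than in adult rats were 11064 and 8138 probes, against 9124 and 10090 with the 75th percentile, 9163 and 10377 after quantile normalization and 8411 and 10262 after normexp. Between adult and old rats 4839 and 8429 became 6722 and 6296 after quantile normalization and 6598 and 6054 after normexp, which moved the median of all probes from -0.13 to about 0. Signal over background limits Hapln1, Matn3 and the old-rat level of Acan.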

Other observations

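Enzymes that build or break the cartilage matrix were called in both directions. Of 9 genes of chondroitin sulfate synthesis and sulfation with a probe, 2 were higher and 2 lower in newborn than in adult rats, and 3 higher and 1 lower than in old rats. Of all probes, 27.0% and 19.9% were higher and lower against adult and 20.6% and 22.8% against old rats. Between adult and old rats, 11.8% of all probes were higher and 20.6% lower in adult rats. Chst12, a chondroitin sulfotransferase, was higher in newborn than in old rats by 0.76 (log2, SE 0.11, adjusted p = 1.38e-06 with limma), and Sulf1, which removes sulfate from heparan sulfate, was lower (-0.92, SE 0.19, adjusted p = 2.09e-04 with limma). Of 8 proteases and protease inhibitors of cartilage, 3 were higher in pups than in adult rats, and 6 were higher and 1 lower than in old rats. In adult rats 6 were higher and 1 lower than in old rats. Both counts of 6 include Adamts4, well above background on 2 newborn, 4 adult and 0 old arrays. Mmp9, a gelatinase of growing cartilage and bone, was higher by 1.87 in newborn than in adult rats and by 2.40 in adult than in old rats (adjusted p = 5.05e-08 and 1.61e-07 with limma). Timp3, an inhibitor of such proteases, was lower than in old rats in newborn (-0.59, adjusted p = 6.65e-03 with limma) and adult rats (-1.06, adjusted p = 5.3e-04 with limma).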
